A study of Arabidopsis thaliana with 67 samples.

Results

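This account is about nuclei sorted as shoot stem cells from Arabidopsis thaliana seedlings of the line labelled ago59, set against the same kind of nuclei from the wild type (wt). Members were chosen by the sample labels: 7 ago59 libraries and 5 wt libraries carry the stem-cell label, 12 of the 67 libraries of the series. The study examines ARGONAUTE proteins in the stem cells of the shoot tip. All plants were of the Col-0 ecotype and grew on soil with 16 h light and 8 h darkness per day, and apices were taken from seedlings at an age of 7 days. For each library 100 nuclei were sorted, and the RNA was turned into a library with the Smart-seq3 protocol. The name ago59 is read here as the double mutant of AGO5 and AGO9. The titles of both groups name the sorted fraction cherry, and the count table holds a row for an mCherry reporter. The alleles, the promoter of the reporter, the number of plants per library and the hour of harvest were not given in the sources used here. Nothing in the labels says that the libraries came from separate plants, so p-values measure the spread between these libraries, which may be technical. Where comparisons needed them, 8 ago5 and 7 ago9 stem-cell libraries and 3 ago59 and 3 wt non-stem libraries, sorted by the DNA stain DAPI alone, were also used.

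ARGONAUTE proteins hold a small RNA and use it to find matching RNA, which is then cut, held back from translation or used to direct DNA methylation to the locus. AGO9 belongs to the AGO4 group, which works with small RNAs that match transposable elements, and AGO5 groups with AGO1. Both are known from reproductive tissue, and AGO9 restricts the number of cells that enter the germ line in the ovule. The genes that stood apart in the comparison below include the small subunit of Rubisco, the enzyme that fixes carbon in the chloroplast, and the light-harvesting proteins, which carry chlorophyll in the antennae of the photosystems. Among them are also parts of the circadian clock, starch breakdown and the response to cold.

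AGO9 was the clearest check of the genotype. Levels are given in counts-per-million (CPM), the count of a feature scaled to the total count of its library. The wt libraries, in the order of replicates 3, 4, 5, 7 and 8 that is used throughout, held 67.8, 35.7, 77.7, 139 and 113 CPM. The ago59 libraries held 0 to 26.3 CPM with a median of 12.0, and all 7 lay below the lowest wt library. Its counts fell (log2 fold change -2.91 ± 0.66 (SE), adjusted p = 0.00602). The call of AGO9 held without any single library (adjusted p up to 0.0263) and was lost in a fit with a block for replicate number. AGO5 stood at 3.78, 17.599, 17.3, 32.3 and 4.57 CPM in wt and from 0.692 to 16.6 CPM with a median of 8.72 in ago59, and the groups overlapped (log2 fold change -1.05 ± 0.72 (SE), adjusted p = 0.646). In the ago5 libraries AGO5 stood at 1.81 to 35.1 CPM, which overlapped wt too (log2 fold change -0.42 ± 0.70 (SE), adjusted p = 0.919). AGO5 counts therefore check neither label, and for that gene the ago59 and ago5 groups rest on their labels. Adjusted p throughout is from edgeR's quasi-likelihood test with Benjamini-Hochberg adjustment over all features tested, SE is the standard error, and a feature is called changed at an adjusted p under 0.05.

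The sorted fraction was checked with the reporter and with meristem genes. The mCherry reporter stood at 27.4, 9.85, 18.3, 21.3 and 2.29 CPM in wt, where replicate 8 held 5 reporter counts, and from 15.6 to 69.6 CPM with a median of 28.7 in ago59. CLV3, the peptide that marks the stem cells, stood at 31.6, 1.88, 16.8, 12.3 and 34.3 CPM in wt and from 6.96 to 71.9 CPM with a median of 22.4 in ago59, and it stood at 0 in the wt and 0 to 1.43 CPM in the ago59 non-stem libraries. STM, a homeobox gene that keeps meristem cells undifferentiated, stood at 44.5, 28.1, 46.5, 71.0 and 37.0 CPM in wt and from 47.1 to 164 CPM with a median of 58.8 in ago59, and at 3.74 to 8.34 and 0 to 14.7 CPM in the non-stem libraries. The reporter had 0 counts in the wt non-stem libraries and 0 to 6.44 CPM in those of ago59, where the highest was above wt stem-cell replicate 8. Neither CLV3 nor STM passed the test between ago59 and wt stem-cell nuclei (log2 fold change 0.39 ± 0.54 (SE) for CLV3 and 0.47 ± 0.31 (SE) for STM, adjusted p 0.879 and 0.611). The summed level of the 18 listed stem-cell and meristem markers was 364 to 583 CPM in wt and 629 to 951 CPM in ago59, with none of the 18 at 0 in either group, and these ranges did not overlap. CPM leaves out the further library scaling used in the tests, and whether the gap holds with it was not tested. The part of the difference in summed markers, and of the reporter's, in the results below was not tested. In bulk nuclei, fewer cells of a type and less RNA per cell cannot be told apart.

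**Figure D1:**
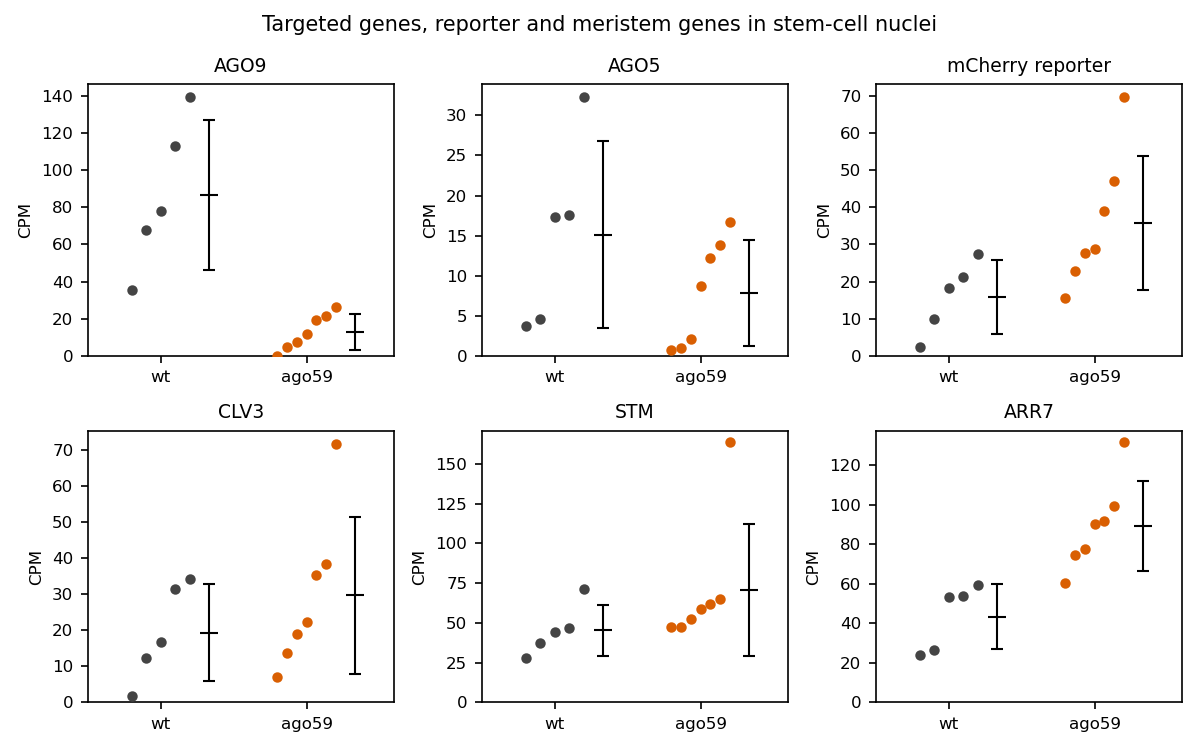
AGO9, AGO5, the mCherry reporter, CLV3, STM and ARR7 in stem-cell nuclei, in CPM on linear axes that start at 0. Each point is 1 library, sorted by value, with 5 wt and 7 ago59 libraries, and the bar is the mean with its SD. The 7 ago59 libraries lie below every wt library for AGO9 and above every wt library for ARR7, and the groups overlap for the other 4.

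Depth ranged from 2107872 to 4235475 counts per library in wt and from 1411218 to 5748535 in ago59. Organelle and ribosomal RNA genes held 20.1% to 36.0% of the counts of these 12 libraries. Chloroplast-encoded genes, which are not transcribed in the nucleus, held 12.4% to 19.6% in wt and 12.9% to 19.5% in ago59. The libraries thus hold RNA from outside the nuclei, and its part in the levels of the genes below was not tested. Summed levels of boundary, epidermis, leaf primordium and vascular markers overlapped between the groups, at 52.5 to 96.3, 340.1 to 594, 455 to 719 and 144 to 337 CPM in wt and 73.6 to 128, 392 to 612, 437 to 656 and 171 to 273 CPM in ago59.

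Of 18633 features tested between ago59 and wt, 547 were called, which is 2.94%. Of these, 365 were lower in ago59, 1.96% of those tested, and 182 were higher, 0.977%. Their median absolute log2 fold change was 1.12, and 214 of the lower and 101 of the higher features changed by more than 2-fold. The biological coefficient of variation was 0.706. The 7 ago59 and the 5 wt values did not overlap in 558 features, 2.99% of those tested, and 307 of these were called, 1.65%. The calls were 530 nuclear genes, 14 transposable element (TE) rows, 2 chloroplast genes and 1 mitochondrial gene. Among them, 175 overlap another annotated gene, a count that was not made over all tested features and did not look at TE rows. Without known strand handling, the counts of these 175 are uncertain to that extent. They include AT5G40450, CP5, LHCA4, CT-BMY, HSFC1, PAP17, AT4G28070, RCA, LHB1B2, LHCB2.3, LHCB3, AT3G54500, RVE1, BMY3, DREB1A, DREB2A, WRKY40, PSBP-1, APR2 and APR3. Leaving out wt replicate 8, the library with the low reporter count, left 465 calls. The gene lists used below were chosen with earlier results of these data known. Their shares of calls are therefore descriptions and not tests of the lists.

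All 4 listed genes of the Rubisco small subunit fell in ago59, and RBCS1A had the smallest adjusted p of the whole comparison. RBCS1A (AT1G67090) stood at 23264, 23759, 23163, 21982 and 20770 CPM in wt and from 8124 to 9379 CPM with a median of 9025 in ago59 (log2 fold change -1.50 ± 0.07 (SE), adjusted p = 1.16e-17). RBCS1B (AT5G38430) stood at 4230, 4639, 4878, 4547 and 4451 CPM in wt and from 1074 to 1351 CPM with a median of 1338 in ago59 (log2 fold change -1.96 ± 0.10 (SE), adjusted p = 3.73e-17). In both genes the highest ago59 library lay below the lowest wt library by more than 2-fold. RBCS2B (AT5G38420) stood at 3587, 4374, 4532, 3603 and 3176 CPM in wt and from 1320 to 1702 CPM with a median of 1423 in ago59 (log2 fold change -1.53 ± 0.10 (SE), adjusted p = 1.61e-13). RBCS3B (AT5G38410) stood at 9317, 10538, 11306, 9703 and 8860 CPM in wt and from 3191 to 3982 CPM with a median of 3548 in ago59 (log2 fold change -1.64 ± 0.09 (SE), adjusted p = 2.78e-16). RBCS1B, RBCS2B and RBCS3B are near-identical copies side by side on chromosome 5, so the level of a single copy is uncertain. The summed level of the 4 genes does not depend on that split. It was 37256 to 43879 CPM in wt and 14093 to 16018 CPM in ago59, so the groups were far apart.

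The promoters of these genes are shown because the 4 copies moved together, beside that of LHB1B1, the light-harvesting gene with the smallest adjusted p among features that rose. Each window is the 250 bases before the outermost annotated start of the gene in RefSeq, build TAIR10.1, read 5′ to 3′ on the strand of the gene. Capitals mark the G-box CACGTG and the I-box GATAAG, both known from promoters of light-regulated genes and searched for on both strands. The windows are chr1:25049668-25049917, chr5:15385321-15385570, chr5:15382072-15382321 and chr5:15378643-15378892, all on the minus strand, and chr2:14524357-14524606 on the plus strand.
RBCS1A: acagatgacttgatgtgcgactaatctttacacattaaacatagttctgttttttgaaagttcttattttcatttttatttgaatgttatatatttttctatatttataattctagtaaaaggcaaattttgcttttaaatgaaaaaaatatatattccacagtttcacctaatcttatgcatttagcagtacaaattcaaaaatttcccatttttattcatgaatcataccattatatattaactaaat
RBCS1B: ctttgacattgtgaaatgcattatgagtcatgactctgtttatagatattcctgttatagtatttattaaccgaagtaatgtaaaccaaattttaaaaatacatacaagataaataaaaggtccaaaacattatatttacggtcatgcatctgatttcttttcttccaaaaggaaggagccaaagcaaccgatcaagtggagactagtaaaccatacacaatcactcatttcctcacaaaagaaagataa
RBCS2B: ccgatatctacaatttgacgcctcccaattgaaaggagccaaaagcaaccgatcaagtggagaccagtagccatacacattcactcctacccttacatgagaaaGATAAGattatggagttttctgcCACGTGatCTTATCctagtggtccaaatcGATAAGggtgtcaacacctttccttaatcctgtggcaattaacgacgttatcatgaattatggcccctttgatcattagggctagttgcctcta
RBCS3B: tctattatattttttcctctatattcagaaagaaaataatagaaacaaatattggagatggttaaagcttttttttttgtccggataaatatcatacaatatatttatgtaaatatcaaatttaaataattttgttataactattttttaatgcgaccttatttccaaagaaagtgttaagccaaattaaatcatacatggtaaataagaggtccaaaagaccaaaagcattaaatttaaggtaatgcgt
LHB1B1: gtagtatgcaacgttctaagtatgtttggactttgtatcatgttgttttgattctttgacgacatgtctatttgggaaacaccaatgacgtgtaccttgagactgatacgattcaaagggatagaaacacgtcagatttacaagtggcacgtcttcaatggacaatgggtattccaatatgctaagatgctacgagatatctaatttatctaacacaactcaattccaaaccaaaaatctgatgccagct
The window of RBCS2B held a G-box and 3 I-boxes, and the other 4 windows held neither. The annotated starts lie at different points of the copies, so their windows do not cover matching stretches. In RBCS1B the window ended inside the letters that make an I-box in RBCS2B. A window without a match therefore does not show that the promoter of that gene lacks the box. Of the 27443 such windows of nuclear protein-coding genes, 6.49% held the G-box and 12.3% the I-box. Of the 20 listed light-harvesting genes, 4 held the G-box and 4 the I-box. A match is a run of letters in this window and not a site shown to be used.

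Of 16 other Calvin cycle genes tested, 3 fell, 0 rose and 13 did not pass, which is 18.75% called against 2.94% of all features. Their median log2 fold change was -0.26 against 0.03 over all features. CP12-2, a small protein that holds a pair of Calvin cycle enzymes inactive in the dark, stood at 208, 243, 259.8, 225 and 324 CPM in wt and from 65.5 to 121 CPM with a median of 101 in ago59, with no overlap (log2 fold change -1.52 ± 0.18 (SE), adjusted p = 4.53e-07). RCA, the Rubisco activase that frees the enzyme from bound sugar phosphates, stood at 3420, 3588, 3735, 3325 and 3207 CPM in wt and from 2226 to 2623 CPM with a median of 2435 in ago59, again with no overlap (log2 fold change -0.64 ± 0.09 (SE), adjusted p = 9.19e-06). RPE, an epimerase of the cycle, also fell (log2 fold change -0.65 ± 0.14 (SE), adjusted p = 0.00285).

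Of 20 light-harvesting genes tested, 10 rose, 0 fell and 10 did not pass, which is 50% called against 2.94% of all features. The median log2 fold change was 0.37, with 13 estimates above 0 and 7 below. DESeq2 called 11, the added one being LHCB4.1, a minor antenna protein with a lower level in ago59 (log2 fold change -0.27 ± 0.10 (SE), edgeR adjusted p = 0.173). LHB1B1, a gene of the major antenna protein of photosystem II also called LHCB1.4, stood at 401, 498, 697, 504 and 425 CPM in wt and from 1593 to 1990 CPM with a median of 1737 in ago59 (log2 fold change 1.68 ± 0.15 (SE), adjusted p = 5.37e-10). The lowest ago59 library was above the highest wt library by more than 2-fold. CAB2, another gene of the same protein, stood at 3208, 3670, 3801, 3215 and 2995 CPM in wt and from 5873 to 6685 CPM with a median of 6055 in ago59 (log2 fold change 0.73 ± 0.09 (SE), adjusted p = 5.00e-07). LHCA4, an antenna protein of photosystem I, stood at 1685, 1855, 1852, 1600 and 1356 CPM in wt and from 3026 to 3599 CPM with a median of 3338 in ago59 (log2 fold change 0.86 ± 0.10 (SE), adjusted p = 3.51e-07). The groups did not overlap for either. CAB3, LHB1B2, LHCB2.1, LHCB2.2, LHCB2.3, LHCB3 and LHCA1 rose by 0.35 to 0.85 on the log2 scale, with adjusted p of 2.03e-06 to 0.0298, and all 7 ago59 libraries were above all wt libraries for each of them. The call of LHCA1 was lost without wt replicate 8 (adjusted p up to 0.0577) and that of LHCB3 without ago59 replicate 2, 4 or 8 or wt replicate 4, 7 or 8 (adjusted p up to 0.114). CAB2 and CAB3 are close copies that can share reads, and so are the LHCB2 genes. The summed level of the 20 listed genes was 26407 to 35739 CPM in wt and 42446 to 50065 CPM in ago59.

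Genes of chlorophyll synthesis and greening mostly did not pass, with 1 of 14 lower and 0 higher, 7.14% called against 2.94% of all features. ELIP1, a protein that binds chlorophyll in strong light, stood at 104, 85.4, 75.7, 115 and 112 CPM in wt and from 0 to 37.7 CPM with a median of 13.8 in ago59, without overlap (log2 fold change -2.79 ± 0.53 (SE), adjusted p = 0.000845). GUN5, a subunit of the enzyme that puts magnesium into a precursor of chlorophyll, stood at 837 CPM on average in wt and 1095 in ago59 (log2 fold change 0.25 ± 0.11 (SE), adjusted p = 0.345).

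**Figure D2:**
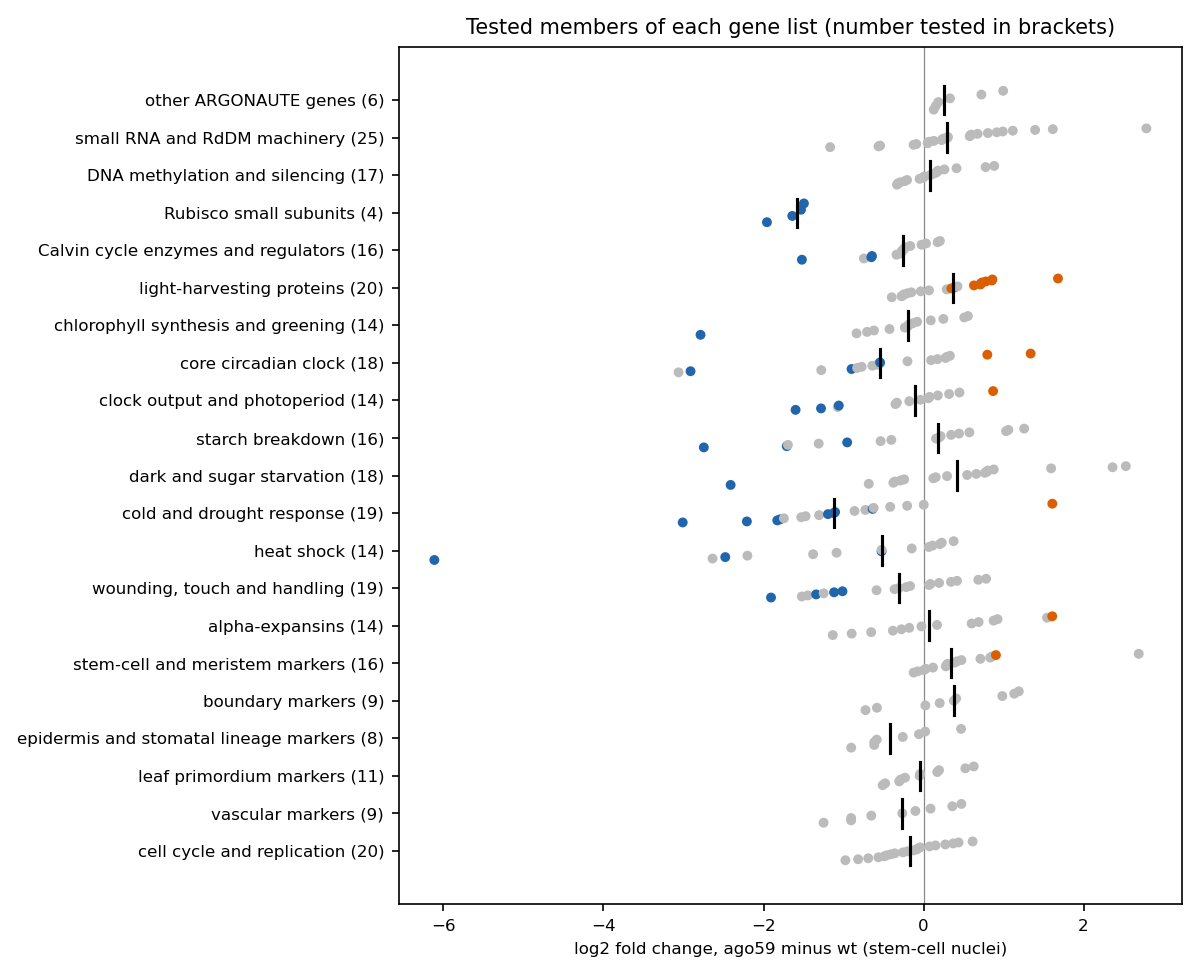
Log2 fold change of ago59 against wt in stem-cell nuclei for every tested member of 21 gene lists. Each point is 1 gene, blue where it was called lower, orange where it was called higher and grey where it did not pass, and the black bar is the median of the list. The 4 Rubisco small subunit genes lie between -1.96 and -1.50, and light-harvesting genes hold 10 of the orange points.

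Clock genes were called in both directions. Of 18 core clock genes tested, 3 fell, 2 rose and 13 did not pass, which is 27.8% called against 2.94% of all features. LHY, a MYB-like factor that peaks at dawn, stood at 483, 609, 524, 498 and 555 CPM in wt and from 208 to 384 CPM with a median of 320.3 in ago59, with no overlap (log2 fold change -0.90 ± 0.15 (SE), adjusted p = 0.000144). Its partner CCA1 fell by less, and 4 of the 7 ago59 libraries were below all wt libraries (log2 fold change -0.54 ± 0.14 (SE), adjusted p = 0.0205). PRR9, a repressor of both that follows them in the morning, stood at 21.9, 18.4, 24.5, 18.9 and 31.7 CPM in wt and from 0 to 17.5 CPM with a median of 0 in ago59 (log2 fold change -2.91 ± 0.83 (SE), adjusted p = 0.0442). AT3G54500, the co-activator LNK2, stood at 1052, 1129, 1109, 906 and 839 CPM in wt and from 1646 to 2215 CPM with a median of 1934 in ago59, with all 7 above all wt libraries (log2 fold change 0.80 ± 0.11 (SE), adjusted p = 5.54e-06). TCP11, known as the clock factor CHE, rose in the test with 6 of 7 libraries above wt (log2 fold change 1.34 ± 0.39 (SE), adjusted p = 0.0469). The call of CCA1 was lost without ago59 replicate 4 or wt replicate 5 or 7 (adjusted p up to 0.0696), that of TCP11 without ago59 replicate 2, 3, 4 or 8 or wt replicate 3, 5 or 7 (adjusted p up to 0.160), and that of PRR9 without any 1 of the libraries other than ago59 replicate 2 (adjusted p up to 0.0967). Without that replicate the log2 fold change of PRR9 was -4.67.

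Among 14 clock output genes, 3 fell, 1 rose and 10 did not pass, which is 28.6% called against 2.94% of all features. RVE1, a morning MYB-like factor that acts on auxin synthesis, stood at 228, 318, 311, 258 and 304 CPM in wt and from 90.6 to 162 CPM with a median of 132 in ago59 (log2 fold change -1.28 ± 0.16 (SE), adjusted p = 5.36e-07). RVE2 stood at 129, 159, 245, 163 and 154 CPM in wt and from 39.2 to 98.3 CPM with a median of 50.4 in ago59 (log2 fold change -1.60 ± 0.21 (SE), adjusted p = 2.39e-06). In both, all 7 ago59 libraries were below all wt libraries. GRP7, a clock-controlled RNA-binding protein, fell as well (log2 fold change -1.06 ± 0.27 (SE), adjusted p = 0.0216). PIF4, a factor that promotes elongation in warmth and shade, rose (log2 fold change 0.87 ± 0.25 (SE), adjusted p = 0.0424). The call of GRP7 was lost without ago59 replicate 1 or wt replicate 4 or 7 (adjusted p up to 0.0982), and that of PIF4 without ago59 replicate 2, 4 or 6 or wt replicate 3, 4, 5 or 8 (adjusted p up to 0.163). The hour of harvest, which sets the level of such genes, is not given for any library.

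Of 16 genes of starch breakdown, 3 fell and 0 rose, which is 18.75% called against 2.94% of all features. The median log2 fold change of the list was 0.18, with 9 estimates above 0 and 7 below. All 3 genes that fell belong to the beta-amylase family. CT-BMY, the chloroplast beta-amylase BAM3 that releases maltose at night, stood at 1542, 1462, 1674, 1029 and 1060 CPM in wt and from 169 to 277 CPM with a median of 231 in ago59 (log2 fold change -2.75 ± 0.17 (SE), adjusted p = 1.20e-14). The highest ago59 library lay below the lowest wt library by more than 3-fold, and the gene overlaps 2 other annotated features. BAM1, the beta-amylase of stressed leaves and guard cells, stood at 342, 275, 249.7, 337 and 305 CPM in wt and from 63.7 to 162 CPM with a median of 89.7 in ago59 (log2 fold change -1.71 ± 0.21 (SE), adjusted p = 8.40e-07). BMY3, an inactive relative also called BAM9, fell too, although 6 of the 7 ago59 libraries lay within the wt range (log2 fold change -0.95 ± 0.24 (SE), adjusted p = 0.0205), and its call was lost without ago59 replicate 5 or wt replicate 3, 4 or 5 (adjusted p up to 0.0924). The 18 tested genes of darkness and sugar starvation had a median log2 fold change of 0.42, with 12 estimates above 0 and 6 below. Of these, 1 fell and 0 rose, which is 5.56% called against 2.94% of all features. That gene, BT1, a BTB-domain protein, stood at 396, 255, 367, 349 and 322 CPM in wt and from 45.9 to 101 CPM with a median of 63.1 in ago59 (log2 fold change -2.41 ± 0.32 (SE), adjusted p = 1.84e-06).

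The cold and drought list held 8 genes that fell and 1 that rose among 19 tested, 47.4% called against 2.94% of all features, with a median log2 fold change of -1.12 against 0.03. The 3 CBF genes, which encode the factors that switch on cold genes, all fell. CBF1 stood at 138, 107, 195, 65.1 and 92.3 CPM in wt and from 22.5 to 58.7 CPM with a median of 29.3 in ago59 (log2 fold change -1.83 ± 0.31 (SE), adjusted p = 0.000144). CBF2 stood at 225, 231, 201, 144 and 168 CPM in wt and from 64.9 to 135 CPM with a median of 97.5 in ago59 (log2 fold change -1.19 ± 0.20 (SE), adjusted p = 0.000120). Both groups of ago59 values lay below all wt values. DREB1A, the gene of CBF3, stood at 50.6, 47.0, 54.7, 53.1 and 33.6 CPM in wt and from 0 to 37.5 CPM with a median of 12.8 in ago59, with 6 of 7 below wt (log2 fold change -1.79 ± 0.47 (SE), adjusted p = 0.0228). Its call was lost without ago59 replicate 2 or wt replicate 3, 5 or 7 (adjusted p up to 0.0552). These 3 genes are neighbouring copies, and reads may be shared among them.

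Other genes of the list fell too. ERD10, a dehydrin that protects cells during drying, stood at 1441, 1538, 1480, 1286 and 1399 CPM in wt and from 559 to 898 CPM with a median of 725 in ago59 (log2 fold change -1.12 ± 0.14 (SE), adjusted p = 5.41e-07). LTI78, a late cold and drought protein, stood at 54.5, 52.5, 78.2, 37.5 and 53.5 CPM in wt and from 8.52 to 17.3 CPM with a median of 13.2 in ago59 (log2 fold change -2.21 ± 0.47 (SE), adjusted p = 0.00356). ERD7 stood at 29.0, 33.8, 56.6, 23.2 and 31.1 CPM in wt and from 0.309 to 10.9 CPM with a median of 3.72 in ago59 (log2 fold change -3.01 ± 0.64 (SE), adjusted p = 0.00303). No ago59 library reached the wt range of these 3 genes. ERD14, another dehydrin, and KIN2 also fell, with log2 fold changes of -0.64 ± 0.14 (SE) and -1.10 ± 0.28 (SE) (adjusted p 0.00442 and 0.0198). The call of KIN2 was lost without wt replicate 5 or 7 (adjusted p up to 0.0889). RD22, a drought-induced gene with a BURP domain, was the exception and stood at 85.8, 96.2, 166, 96.3 and 122 CPM in wt and from 298 to 559 CPM with a median of 351 in ago59 (log2 fold change 1.61 ± 0.22 (SE), adjusted p = 3.79e-06).

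Heat and handling genes fell in smaller numbers. Of 14 heat shock genes, 3 fell and 0 rose, which is 21.4% called against 2.94% of all features. DREB2A, a factor of drought and heat, stood at 109, 92.4, 140.0, 56.9 and 63.1 CPM in wt and from 10.2 to 35.8 CPM with a median of 16.6 in ago59 (log2 fold change -2.48 ± 0.39 (SE), adjusted p = 5.11e-05). HSP18.2, a small heat shock protein, stood at 4.01, 0.938, 8.26, 7.12 and 4.11 CPM in wt, and 6 of the 7 ago59 libraries had 0 counts while the other had 0.200 CPM (log2 fold change -6.11, and -6.97 without ago59 replicate 1, adjusted p = 0.0101). HSP81-2, a cytosolic HSP90 chaperone, fell by less (log2 fold change -0.52 ± 0.15 (SE), adjusted p = 0.0481), and its call was lost without ago59 replicate 3, 4, 5, 6 or 8 or wt replicate 3, 4, 7 or 8 (adjusted p up to 0.185). Of 19 genes known from wounding, touch and handling, 4 fell and 0 rose, where 1.96% of all features fell. ACS6, an enzyme of ethylene synthesis, stood at 673, 561, 812, 395 and 449.9 CPM in wt and from 121 to 233 CPM with a median of 154 in ago59 (log2 fold change -1.91 ± 0.19 (SE), adjusted p = 5.33e-09). STZ, WRKY40 and ERF4, transcription factors of stress responses, fell with log2 fold changes of -1.34, -1.12 and -1.01 (adjusted p 0.0139, 0.0348 and 0.00575). The call of WRKY40 was lost without ago59 replicate 2, 3, 4 or 6 or wt replicate 3, 4 or 8 (adjusted p up to 0.174).

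Growth and meristem genes gave few calls. Of 14 alpha-expansins, which loosen the cell wall, 1 rose and 0 fell, 7.14% called against 2.94% of all features. EXPA1 stood at 141, 169, 189, 140.4 and 129 CPM in wt and from 418 to 606 CPM with a median of 500.2 in ago59, with all 7 far above wt (log2 fold change 1.61 ± 0.15 (SE), adjusted p = 1.90e-09). EXPA15, with the highest mean CPM of the other members, stood at 118 CPM in wt and 80.7 CPM in ago59 (log2 fold change -0.65 ± 0.30 (SE), adjusted p = 0.339). Of 16 stem-cell and meristem genes, 1 rose and 15 did not pass, 6.25% called against 2.94% of all features. That gene was ARR7, a repressor of cytokinin signalling in the meristem, at 24.1, 26.7, 59.1, 53.1 and 53.9 CPM in wt and from 60.5 to 132 CPM with a median of 90.14 in ago59 (log2 fold change 0.91 ± 0.25 (SE), adjusted p = 0.0310). Its call was lost without ago59 replicate 1 or 5 or wt replicate 3 or 4 (adjusted p up to 0.133). The median of the list was 0.35, and 14 of the 16 estimates were positive.

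No member of 8 lists was called by edgeR: the 6 tested ARGONAUTE genes other than AGO5 and AGO9, 25 genes of the small RNA and RNA-directed DNA methylation machinery, 17 of DNA methylation and silencing, 9 boundary, 8 epidermis, 11 leaf primordium and 9 vascular markers, and 20 of the cell cycle and replication. Of these 105 genes, 10 had an unadjusted p under 0.05, and DESeq2 called 1, the histone gene AT3G27360. Over all 18633 features, 2277 had an unadjusted p under 0.05, edgeR called 2.94% and DESeq2 called 851. With so few members per list, the absence of calls is not a result about these groups. AGO1, the main partner of microRNAs, stood at 88.1, 158, 95.8, 95.4 and 91.3 CPM in wt and from 65.9 to 227 CPM with a median of 114 in ago59 (log2 fold change 0.19 ± 0.22 (SE), adjusted p = 0.856). AGO4, the closest well-known relative of AGO9 in function, stood at 65.6, 122, 118, 120.0 and 95.6 CPM in wt and from 90.0 to 212 CPM with a median of 111 in ago59 (log2 fold change 0.13 ± 0.21 (SE), adjusted p = 0.902). Both ranges overlapped. DME, a DNA demethylase, was above all wt libraries in all 7 ago59 libraries but did not pass (log2 fold change 0.41 ± 0.21 (SE), adjusted p = 0.451).

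Further genes with the smallest adjusted p among those that rose came from several processes. AT4G36850, a membrane protein with PQ-loop repeats, stood at 15.6, 18.8, 15.5, 21.3 and 18.7 CPM in wt and from 112 to 218 CPM with a median of 157 in ago59 (log2 fold change 2.91 ± 0.31 (SE), adjusted p = 3.04e-08). AT1G13650, an uncharacterized protein, stood at 42.0, 23.5, 29.7, 13.8 and 22.9 CPM in wt and from 139 to 264 CPM with a median of 220.0 in ago59 (log2 fold change 2.73 ± 0.31 (SE), adjusted p = 1.12e-07). In both, the lowest ago59 library exceeded the highest wt library by more than 3-fold. AT5G40450, which overlaps AT5G40440, stood at 372, 519, 286, 306 and 358 CPM in wt and from 957 to 1608 CPM with a median of 1128 in ago59 (log2 fold change 1.59 ± 0.17 (SE), adjusted p = 3.04e-08). FUM2, a cytosolic fumarase, stood at 50.4, 65.3, 26.2, 29.9 and 36.1 CPM in wt and from 112 to 192 CPM with a median of 159.5 in ago59 (log2 fold change 1.79 ± 0.22 (SE), adjusted p = 7.79e-07). SNG1, the enzyme that makes sinapoylmalate, and CP5 rose by 1.29 ± 0.15 (SE) and 0.94 ± 0.11 (SE) on the log2 scale (adjusted p 3.50e-07 and 2.85e-07).

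Genes that fell with small adjusted p included stress and nutrient genes. PAP17, an acid phosphatase known from phosphate starvation, stood at 94.4, 143, 126, 34.2 and 79.2 CPM in wt and from 2.03 to 11.2 CPM with a median of 6.87 in ago59 (log2 fold change -4.00 ± 0.41 (SE), adjusted p = 1.68e-08). HSFC1, a heat shock factor, stood at 745, 542, 701, 438 and 459 CPM in wt and from 134 to 261 CPM with a median of 169.7 in ago59 (log2 fold change -1.83 ± 0.18 (SE), adjusted p = 6.98e-09). VTC2, the controlling enzyme of vitamin C synthesis, stood at 228, 369, 457, 314 and 245 CPM in wt and from 63.2 to 129 CPM with a median of 69.9 in ago59 (log2 fold change -2.04 ± 0.21 (SE), adjusted p = 1.41e-08). SZF1, a zinc finger protein of the salt response, stood at 329, 350.4, 473, 234 and 242 CPM in wt and from 95.9 to 156 CPM with a median of 128 in ago59 (log2 fold change -1.51 ± 0.18 (SE), adjusted p = 4.53e-07). LSU2, a gene induced by low sulfur, stood at 71.8, 122, 74.4, 121 and 152 CPM in wt and from 0 to 16.0 CPM with a median of 0.616 in ago59 (log2 fold change -4.69 ± 0.82 (SE), adjusted p = 0.000269), and its log2 fold change was -5.72 without ago59 replicate 1. In each of these 5 genes all ago59 libraries lay below all wt libraries. AT5G13100 and AT4G28070, which encodes an AFG1-like ATPase, fell with log2 fold changes of -1.54 ± 0.17 (SE) and -2.44 ± 0.29 (SE) (adjusted p 1.12e-07 and 3.51e-07).

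A few features were at or near 0 in one of the groups. AT1G73510, an uncharacterized protein, stood at 23.8, 81.6, 46.5, 66.9 and 35.2 CPM in wt and had 0 counts in all 7 ago59 libraries, at least 389-fold lower against a floor of 3 counts over the ago59 group (adjusted p = 3.12e-05). It stood on average at 0.805 CPM in ago5 and 0.839 CPM in ago9, and had 0 counts in the 3 ago59 non-stem libraries. AT5G37250, a RING finger protein, stood at 29.4, 23.0, 21.5, 15.66 and 15.0 CPM in wt and from 0 to 6.37 CPM with a median of 0.174 in ago59 (log2 fold change -4.77 ± 1.09 (SE), adjusted p = 0.00737). Without ago59 replicate 5 its log2 fold change was -6.86. AT1G64140, annotated as a WRKY factor, had 0 counts in all 5 wt libraries and from 0 to 41.1 CPM with a median of 25.9 in ago59, at least 92.2-fold higher against the same floor (adjusted p = 0.0236). Its call was lost without any 1 of the 5 wt libraries (adjusted p up to 0.0667). In non-stem nuclei it stood at 40.6 ± 12.6 CPM in wt (SD, n = 3) and 16.1 ± 27.9 CPM in ago59 (SD, n = 3), so the direction seen in stem-cell nuclei was not seen there. The row of MIR167d, the precursor of a microRNA that acts on auxin response factors, stood at 8.50, 0, 0, 0.949 and 1.83 CPM in wt and from 8.27 to 51.8 CPM with a median of 17.58 in ago59 (log2 fold change 3.08 ± 0.76 (SE), adjusted p = 0.0137). Its log2 fold change was 5.04 without wt replicate 3, and its call was lost in a fit of the groups compared alone.

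Transposable elements are the known targets of AGO9 small RNAs, but most TE rows had too few counts to be tested. Of 31189 TE rows, 664 passed the low-count filter, and nothing is said here about the others. Of the 664 TE rows tested, 5 rose and 9 fell, which is 2.11% called against 2.94% of all features. Whether these rows overlap or adjoin genes was not looked up. Their counts may therefore include reads from genes. AT1TE93275 had 1 count in a single wt library and stood from 6.99 to 22.2 CPM with a median of 13.2 in ago59, at 14.0 ± 7.09 CPM (SD, n = 8) in ago5 and at 16.7 ± 9.21 CPM (SD, n = 7) in ago9. In ago59 its log2 fold change against wt was 6.95, and 8.40 without wt replicate 3 (adjusted p = 7.61e-07). AT5TE18970 stood at 30.5, 16.9, 32.0, 25.6 and 21.0 CPM in wt and from 61.0 to 87.2 CPM with a median of 70.5 in ago59 (log2 fold change 1.38 ± 0.24 (SE), adjusted p = 0.000216). AT5TE50255 had 0 counts in wt and from 2.13 to 16.3 CPM with a median of 7.39 in ago59, at least 39.1-fold higher (adjusted p = 0.00105). AT5TE40480 stood at 22.4, 308, 369, 70.7 and 160.5 CPM in wt and from 16.5 to 53.4 CPM with a median of 22.6 in ago59, and wt replicate 3 lay within the ago59 range (log2 fold change -2.88 ± 0.46 (SE), adjusted p = 6.26e-05). AT4TE69050 stood at 19.8, 47.9, 54.0, 11.4 and 28.3 CPM in wt and from 0 to 1.80 CPM with a median of 0.413 in ago59 (log2 fold change -5.59 ± 0.92 (SE), adjusted p = 0.000105), and AT3TE91745 fell with a log2 fold change of -1.44 ± 0.29 (SE) (adjusted p = 0.00186).

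Shares of all counts gave 1 difference. Mitochondrial genes held 0.392% ± 0.0527 (SD, n = 5) of the counts in wt and 0.580% ± 0.0731 (SD, n = 7) in ago59, with 6 of 7 ago59 libraries above all wt libraries (exact two-sided permutation test, p = 0.00505, adjusted over 5 measures 0.0253). Without wt replicate 3, 4, 5 or 8 the adjusted p was 0.0606 in each case. Of 57 mitochondrial genes tested singly by edgeR, 1 was called, ATMG00020. Its mean was 1641 CPM in wt and 2631 CPM in ago59 (log2 fold change 0.53, edgeR adjusted p = 0.016). The share was not tested without that gene, so it is not shown to be a change across the class. The reporter stood at 15.8 ± 9.87 CPM (SD, n = 5) in wt and 35.8 ± 18.1 CPM (SD, n = 7) in ago59, which did not pass (exact permutation p = 0.0328, adjusted 0.0821). Without ago59 replicate 5 its adjusted p was 0.0216. TE rows held 1.31% ± 0.134 (SD, n = 5) and 1.26% ± 0.142 (SD, n = 7), and chloroplast genes 16.3% ± 3.07 (SD, n = 5) and 16.7% ± 2.44 (SD, n = 7), neither of which passed (exact permutation test, adjusted p 0.926 and 1).

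The ago59 line was next set against each single mutant in the same kind of nuclei. Against ago5, 37 features were called, 0.199% of those tested, with 14 higher (0.0751%) and 23 lower (0.123%) in ago59. Against ago9, 76 were called, 0.408%, with 22 higher (0.118%) and 54 lower (0.29%). Against wt, 248 features were called in ago5, 1.33%, and 125 in ago9, 0.671%, from comparisons that share the wt libraries. AGO9 was lower in ago59 than in ago5 (-2.95 ± 0.62 (SE) on the log2 scale, adjusted p = 0.0227), where it stood at 26.2 to 195 CPM. It did not differ detectably from ago9 (0.13 ± 0.62 (SE)), where it stood at 0 to 42.8 CPM.

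Rubisco small subunit genes were lower in ago59 than in either single mutant, with RBCS1A the exception against ago5. RBCS1B stood at 1597 to 2560 CPM in ago5 and 2273 to 3328 CPM in ago9, and the ago59 libraries lay below both ranges. The log2 difference of ago59 was -0.72 ± 0.09 (SE) from ago5 and -0.97 ± 0.09 (SE) from ago9 (adjusted p 8.48e-06 and 9.92e-09). RBCS3B differed by -0.72 ± 0.08 (SE) and -0.88 ± 0.08 (SE) (adjusted p 1.47e-06 and 9.92e-09), and RBCS2B by -0.71 ± 0.09 (SE) and -0.74 ± 0.10 (SE) (adjusted p 2.95e-05 and 9.07e-06). RBCS1A differed by -0.24 ± 0.06 (SE) from ago5, which did not pass, and by -0.34 ± 0.07 (SE) from ago9 (adjusted p 0.141 and 0.00463). Set against wt, RBCS1B changed by -1.23 in ago5, -0.99 in ago9 and -1.96 in ago59, from comparisons that share the wt libraries.

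Other genes followed the same order of levels. CT-BMY stood at 252 to 628 CPM in ago5 and 499 to 791 CPM in ago9, and was lower in ago59, with log2 differences of -1.04 ± 0.15 (SE) and -1.61 ± 0.16 (SE) (adjusted p 0.000139 and 1.35e-08). EXPA1 stood at 237 to 386 CPM in ago5 and 219.8 to 332 CPM in ago9, and was higher in ago59 by 0.70 ± 0.13 (SE) and 0.89 ± 0.13 (SE) (adjusted p 0.00331 and 1.00e-04). LHB1B1 stood at 806 to 1403 CPM in ago5 and 690.5 to 1246 CPM in ago9, and was higher in ago59 by 0.59 ± 0.12 (SE) and 0.99 ± 0.13 (SE) (adjusted p 0.0227 and 1.11e-05). For LHB1B1 and EXPA1 the ago59 libraries lay above every single-mutant library, and for CT-BMY they overlapped ago5 alone. CAB2 was higher in ago59 than in ago9 by 0.61 ± 0.08 (SE) (adjusted p = 1.03e-05) and did not pass against ago5 (adjusted p = 0.0611). AT4G36850 was higher by 1.29 ± 0.24 (SE) than in ago5 and 2.41 ± 0.26 (SE) than in ago9 (adjusted p 0.00540 and 2.25e-07).

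**Figure D3:**
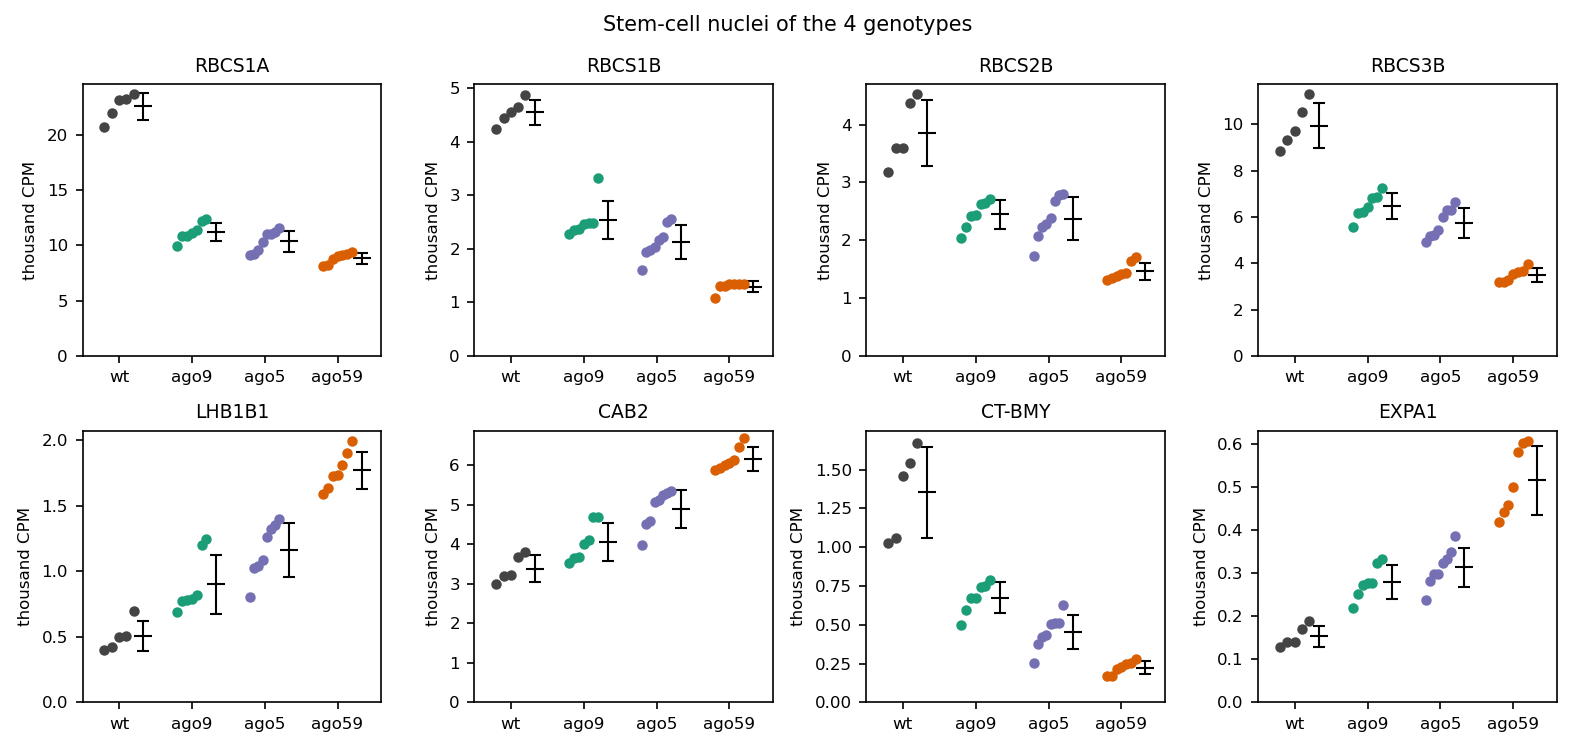
RBCS1A, RBCS1B, RBCS2B, RBCS3B, LHB1B1, CAB2, CT-BMY and EXPA1 in stem-cell nuclei of 4 genotypes, in units of 1000 CPM on linear axes that start at 0. Each point is 1 library, sorted by value (5 wt, 7 ago9, 8 ago5 and 7 ago59), and the bar is the mean with its SD. The ago59 libraries hold the lowest mean of each Rubisco gene and of CT-BMY, and the highest mean of LHB1B1, CAB2 and EXPA1.

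Some genes passed against a single mutant and not against wt. BT2, a relative of BT1, stood at 149.7, 222, 203, 139 and 116 CPM in wt, from 102 to 164 CPM with a median of 143 in ago59, at 28.9 to 121 CPM in ago5 and at 42.2 to 91.7 CPM in ago9. It was higher in ago59 than in ago5 by 1.02 ± 0.22 (SE) and than in ago9 by 1.102 ± 0.23 (SE) (adjusted p 0.0234 and 0.00951), and its change from wt did not pass (adjusted p = 0.604). AT2G20670 and AT3G15450 were higher in ago59 than in ago5 by 1.03 ± 0.17 (SE) and 0.88 ± 0.15 (SE) (adjusted p 0.00169 and 0.00169), and neither passed against wt (adjusted p 0.505 and 0.497). SZF1 was lower in ago59 than in either single mutant, with log2 differences of -1.17 ± 0.16 (SE) from ago5 and -0.95 ± 0.17 (SE) from ago9 (adjusted p 9.10e-05 and 0.00128), while neither single mutant passed against wt (adjusted p 0.491 and 0.206).

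The same genotypes were compared in nuclei sorted by DAPI alone, which are separate libraries, 3 of each. There 220 of 18334 features were called, 1.2%, with 62 higher (0.338%) and 158 lower (0.862%) in ago59. Of the 547 calls in stem-cell nuclei, 536 were tested in non-stem nuclei, 518 had the same sign there and 169 were called there, all in the same direction. Agreement in sign was not counted over all features tested in both. Those 169 are 30.9% of the stem-cell calls and 76.8% of the non-stem calls. The features lower in stem-cell nuclei had a median log2 fold change of -1.12 there and -0.96 in non-stem nuclei, and the higher features 1.12 and 0.74. A test of the difference between the nuclei called 0 of 19225 features by edgeR with the low-count filter, 30 without it and 9 by DESeq2, and 869 had an unadjusted p under 0.05.

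All 4 Rubisco small subunit genes also fell in non-stem nuclei, and their summed level was 47964 to 52449 CPM in wt and 14667 to 17088 CPM in ago59. RBCS1A stood at 26166 to 28627 CPM in wt and 8357 to 10152 CPM in ago59 (log2 fold change -1.68 ± 0.09 (SE), adjusted p = 2.21e-11). CT-BMY stood at 1414 to 2322 CPM in wt and 319 to 343 CPM in ago59 (log2 fold change -2.60 ± 0.18 (SE), adjusted p = 1.66e-09). EXPA1 stood at 177 to 216 CPM in wt and 541 to 727 CPM in ago59 (log2 fold change 1.63 ± 0.24 (SE), adjusted p = 0.000270). In each of these genes the groups did not overlap. Of the 20 light-harvesting genes, 4 rose in non-stem nuclei and 0 fell, where 0.338% of all features rose. Their summed level was 37655 to 42917 CPM in wt and 45586 to 52272 CPM in ago59. Of the cold and drought genes, 4 fell and 1 rose among 20 tested there, where 1.2% of all features were called.

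**Figure D4:**
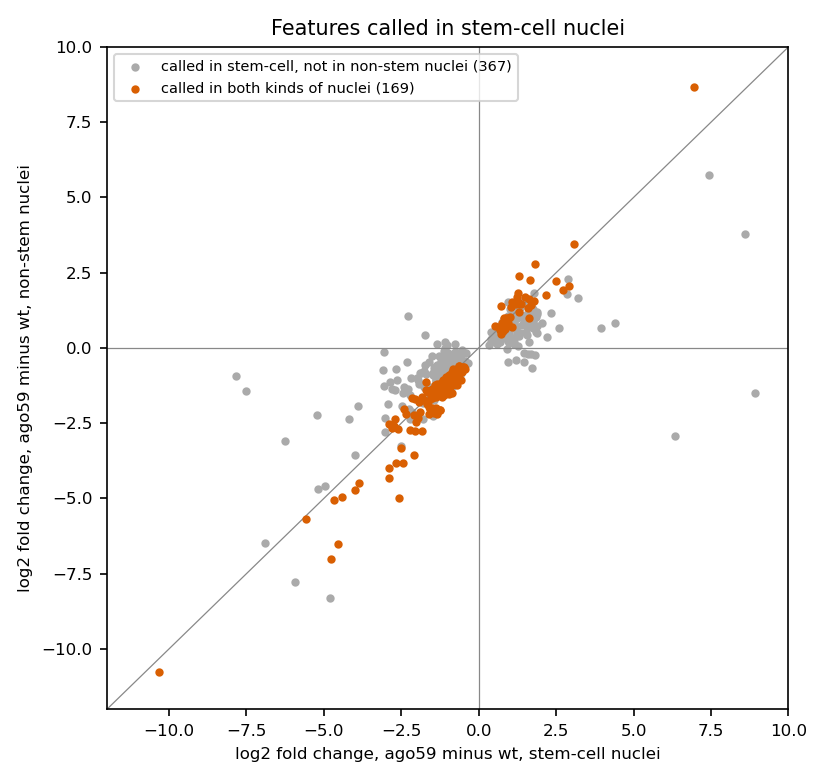
Log2 fold change of ago59 against wt in stem-cell nuclei (x axis) and in non-stem nuclei (y axis) for the 536 features called in stem-cell nuclei and tested in both. Each point is 1 feature, orange for the 169 also called in non-stem nuclei, and the diagonal marks equal change. The orange points all lie in the lower left or upper right quadrant.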

How the data were processed

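The authors deposited 1 table of expected counts, which are estimates and can be fractional, for 60886 features. Per the submitters' processing notes, TAIR10 and DESeq2 are named as build and tool, with no role stated. The aligner, counter, strand handling and use of molecular identifiers were not given in the sources used here. Counts of the 40 seedling columns were rounded to whole numbers, and 27 columns of other samples were not used. CPM (counts-per-million) scales a count to the sum over all features of the library. It leaves out the TMM factors of the fits, which were 0.829 to 1.04 in wt and 0.976 to 1.10 in ago59 stem-cell libraries. Ranges of CPM and statements on overlap therefore differ in scaling from the log2 fold changes.

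The 27 stem-cell libraries of 4 genotypes were fitted together, and the 13 non-stem libraries likewise, with edgeR 4.0.16 in R 4.3.3: TMM scaling, a filterByExpr cutoff of 10 counts and 15 in total, and the functions estimateDisp, glmQLFit and glmQLFTest. The SE was derived from the F statistic as the size of the log2 fold change over the root of F. The 5 shares were compared with exact two-sided permutation tests in scipy 1.17.1, where 0.00253 is the smallest p for 7 against 5 libraries. The edgeR step was tested on simulated data.

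Named genes are AGO5, AGO9 and mCherry, the 12 per direction with the smallest adjusted p whose groups did not overlap, the 3 largest changes per direction at a mean of at least 20 CPM, up to 3 TE rows per direction, the called members of gene lists, and up to 3 per direction against each single mutant. Members and lists were chosen with earlier results of these data known. Symbols come from RefSeq, build TAIR10.1, which matched 28929 of 29696 gene rows. The floor of 3 counts covers counting error only. No pair of libraries agreed within sampling noise (chi-square per degree of freedom at least 12.8 in ago59 and 13.4 in wt). The alternatives replaced TMM by RLE, dropped the filter, used robust quasi-likelihood or the Wald test of DESeq2 1.42.0, took out organelle and rRNA genes, added a replicate block, fitted only the groups compared, or left out each library in turn.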

Additional observations from a re-analysis of the deposited data

Results flagged for a closer look

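In 5 of the 82 groups of values examined, a single library stood far from the others of its group by Dixon's test, which chance gives in about 1 group of 20. MIR167d had 8.50 CPM in wt replicate 3, against a wt median of 0.949 CPM. AT1TE93275 had 0.236 CPM in wt replicate 3, where the other wt libraries had 0. RBCS1B had 1074 CPM in ago59 replicate 5, against an ago59 median of 1338 CPM. AT5G37250 had 6.37 CPM in ago59 replicate 5, against a median of 0.174 CPM. AT5TE40480 had 53.4 CPM in ago59 replicate 8, against a median of 22.6 CPM.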

How the results depend on the processing

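Calls between ago59 and wt in stem-cell nuclei numbered 547, and 402 to 762 with RLE size factors, without the low-count filter, with robust quasi-likelihood, without organelle and ribosomal RNA genes, with the replicate block or with the groups compared alone. DESeq2 gave 851 (338 higher, 513 lower). The no-filter fit gave 119 calls against ago5, 130 against ago9, 352 in non-stem nuclei and 30 for the difference between nuclei, and DESeq2 gave 114, 143, 549 and 9. Against ago5, robust quasi-likelihood gave 59 calls and a fit on the groups compared gave 19. No pairing of the samples by replicate number was detected: same-numbered ago59 and wt libraries had correlated deviations of -0.0317 to 0.0106 in 4 pairs, and 0 of 4 correlated best with their own number. With 4 pairs, a weak pairing could go undetected. With the replicate block 402 features were called between ago59 and wt (120 higher, 282 lower), 29 against ago5, 70 against ago9, 169 in non-stem nuclei and 2 for the difference between nuclei.

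Leaving out 1 library gave 413 to 505 calls against wt and 147 to 209 in non-stem nuclei. It gave 22 to 42 against ago5, with 22 without ago59 replicate 4 or ago5 replicate 6 and 24 without ago5 replicate 8. It gave 50 to 66 against ago9, with 50 without ago59 replicate 1. It gave 0 to 2 for the difference between nuclei, with 1 without wt non-stem replicate 2 and 2 without wt non-stem replicate 3. The difference in the mitochondrial share stayed at 0.171 to 0.210 percentage points and that of the reporter at 14.3 to 23.3 CPM. The cause of these shifts was not tested.

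No named feature that was called against wt changed direction. Of those that did not pass, AGO4 had a log2 fold change of 0.13, and -0.03 without ago59 replicate 8. The estimates of DCL1, SULTR2;1, PDF1 and TOPII, which did not pass either, also changed sign when 1 library was left out. Apart from the calls lost when 1 library was left out, given in the report, AGO9, LHCA1, LHCB3, CCA1, TCP11, PIF4, BMY3, KIN2, DREB1A, HSP81-2, WRKY40 and ERF4 lost their call with the replicate block, MIR167d, PRR9, TCP11, PIF4, DREB1A and ARR7 with the groups compared alone, CCA1, TCP11, PIF4 and HSP81-2 without the filter, AT1G64140 with robust quasi-likelihood and TCP11 with RLE. Libraries of 1411218 to 5748535 counts limit what could be called among features with few counts.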

Other observations

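Genes in 4 further groups were put together after their values were seen, so the counts that follow are descriptions. The lists above, chosen with earlier results of these data known, are descriptions too. Of 26 subunits of the photosystems tested, 7 fell in ago59 stem-cell nuclei and 0 rose, 26.9% called against 2.94% of all features. This is in contrast to the direction of the light-harvesting genes, and all 7 belong to photosystem II. PSBP-1, a protein of the oxygen-evolving complex, stood at 1635, 2060, 2108, 1765 and 1483 CPM in wt and from 937 to 1187 CPM with a median of 959 in ago59 (log2 fold change -0.96 ± 0.12 (SE), adjusted p = 5.17e-07). PSBO1, which steadies the manganese cluster of that complex, stood at 1365, 1688, 1857, 1542 and 1372 CPM in wt and from 948 to 1232 CPM with a median of 1105 in ago59 (log2 fold change -0.64 ± 0.11 (SE), adjusted p = 0.000202). No ago59 library reached the wt range of either gene. PSBP-1 overlaps other annotated genes.

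Genes known to be induced by sulfur deficiency formed a second group, with 7 lower and 1 higher of 19 tested. These calls are 42.1% of that group, against 2.94% of all features, and its median log2 fold change was -1.16. APR3, a reductase of sulfate assimilation, stood at 156, 101, 101, 105 and 89.4 CPM in wt and from 1.36 to 16.0 CPM with a median of 5.79 in ago59 (log2 fold change -4.19 ± 0.54 (SE), adjusted p = 1.52e-06). APR2, a related reductase, stood at 363, 438, 338, 502 and 289 CPM in wt and from 18.4 to 138 CPM with a median of 74.1 in ago59 (log2 fold change -2.72 ± 0.33 (SE), adjusted p = 4.67e-07). Both overlap another annotated gene, and neither group of values overlapped the other. GSH2, the second enzyme of glutathione synthesis, was the gene that rose (log2 fold change 1.23 ± 0.30 (SE), adjusted p = 0.0153).

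Of 22 genes of the phenylpropanoid and flavonoid pathway, 10 fell and 0 rose, 45.45% called against 2.94% of all features. Their median log2 fold change was -0.74. PAL1, the entry enzyme, stood at 163, 183, 224, 108 and 153 CPM in wt and from 36.0 to 118 CPM with a median of 60.7 in ago59 (log2 fold change -1.41 ± 0.20 (SE), adjusted p = 1.09e-05). FLS1, which makes flavonols, stood at 53.4, 103, 89.9, 86.8 and 55.3 CPM in wt and from 2.46 to 41.2 CPM with a median of 14.9 in ago59 (log2 fold change -2.23 ± 0.44 (SE), adjusted p = 0.00148).

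Ribosomal protein genes, taken by their RefSeq product names, held 51 that fell and 0 that rose among 313 tested, which is 16.3% called against 2.94% of all features. Their median log2 fold change was -0.42 against 0.03 over all features, and 265 of the 313 estimates were negative. In non-stem nuclei 20 of 311 fell, where 1.2% of all features were called, with a median of -0.52. Many of these genes have close copies that can share reads.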
